A study of Mus musculus with 6 samples.

Results

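The guidance genes described here encode 3 systems of secreted or membrane-bound cues and their receptors: ephrins with Eph receptors, Slits with Robo receptors, and netrins with Dcc, Neo1 and the Unc5 receptors. Members were taken by symbol, as every gene of the deposited table named Epha or Ephb, Efna or Efnb, Slit, Robo, Ntn, Ntng or Unc5 with its family number or letter, plus Dcc and Neo1. This gave 41 of the 24264 genes in the table, of which 17 encode ligands (8 ephrins, 3 Slits, 4 netrins and 2 netrin-Gs) and 24 encode receptors (14 Eph, 4 Robo and 6 netrin receptors).

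RNA was sequenced from lumbar dorsal root ganglia of mouse embryos at E12.5, on a mixed C57/Bl6 x 129/SvEv background. The 3 miR_CKO libraries come from Wnt1-Cre animals homozygous for a floxed miR-183-96-182 cluster, which encodes 3 microRNAs. Controls 1 and 3 are titled Wnt-Cre and Control 2 is titled WT, so the controls do not all carry the Cre. Wnt1-Cre acts in the neural crest, which gives the neurons and glia of the ganglion, and in the dorsal neural tube, but not in muscle or endothelium. The labels speak of separate mice in each group but do not say how many embryos gave 1 library, so p-values measure only the spread between these libraries, which may be partly technical. Mir183, Mir96 and Mir182 were listed at 0 RPKM in all 6 libraries, and since poly(A) libraries hold few microRNA precursors these values do not check the genotypes.

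Eph receptors are tyrosine kinases that bind ephrins on neighbouring cells, and signals pass into both cells. A-type ephrins are held by a lipid anchor and B-type ephrins span the membrane. Slits are large secreted proteins that repel growing axons through Robo receptors, and in sensory neurons they also promote axon branching. Netrins attract axons through Dcc and repel them through Unc5 receptors. MicroRNAs lower the level of messages whose 3 prime UTR pairs with bases 2 to 8 of the microRNA, the seed.

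The mature microRNAs of the deleted cluster are shown because the sites given next are matches to them. In mm10 they lie on the minus strand at chr6:30169711-30169732 (miR-183), chr6:30169506-30169528 (miR-96) and chr6:30165962-30165986 (miR-182). Capitals mark the seed, and the sequences are from RefSeq (GRCm38.p6). miR-96 and miR-182 share seed bases 2 to 7, and miR-183 differs from both at the start of the seed.
miR-96: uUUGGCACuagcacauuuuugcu
miR-182: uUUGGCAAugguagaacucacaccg
miR-183: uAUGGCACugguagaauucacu

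Of the 41 guidance genes, 39 have an annotated 3 prime UTR in the main GENCODE M21 transcript (mm10), and Ntng1 and Ntng2 do not, so those 2 were not searched. A 7-base site was an exact match to microRNA bases 2 to 8, or to bases 2 to 7 followed by an A in the message. An 8-base site met both conditions. Sites of either length were found in 21 of the 39 genes, 34 sites in all. Among all tested genes with a 3 prime UTR, 33.6% had a site. The share was 55.6% of the 36 tested guidance genes, a base that includes the unsearched Ntng1 and Ntng2. Of the tested guidance genes that were searched, 20 had a site and 14 had none. The median UTR length was 1097 bases over all tested genes with a UTR. Over the 36 guidance genes it was 1469 bases, with Ntng1 and Ntng2 entered at 0. Neither pair of values is thus on a like base. An 8-base match (seed plus a closing A) was found in 10 genes, and the sites of 9 of them follow with their flanks, capitals marking the match. The remaining gene is Dcc, with a miR-182 match that is not shown. The matches GTGCCAAA, TTGCCAAA and GTGCCATA belong to miR-96, miR-182 and miR-183.
Ntn4 (chr10:93745952-93745959, plus strand): ggaatattttttaaGTGCCAAAatgtag
Epha3 (chr16:63545431-63545438, minus strand): tttgttacagccaaGTGCCAAAtgctat
Ephb2 (chr4:136649856-136649863, minus strand): ttaccctatgccaaGTGCCAAAatctcc
Ephb1 (chr9:101922938-101922945, minus strand): atgtcgtctgtcagTTGCCAAAggactt
Efnb2 (chr8:8617702-8617709, minus strand): aaaggtataaaaggTTGCCAAAttgctg
Ntn3 (chr17:24205072-24205079, minus strand): cccaggcccttcacTTGCCAAAgatgac
Epha4 (chr1:77373044-77373051, minus strand): ttggggctgaggctGTGCCATAtaaagt
Robo2 (chr16:73895429-73895436, minus strand): attaatgggctgtgGTGCCATAtattaa
Ephb4 (chr5:137373793-137373800, plus strand): ggatttggggaaccGTGCCATAtgggat

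The deposited values carry no stated unit and were read, from their steps, as RPKM, reads per kilobase of transcript scaled to library size. Each library held an estimated 20.0 to 24.1 M reads. Sensory neuron markers were present in full, with 12 of 12 tested and a summed level of 1190 to 1580 RPKM in controls and 1240 to 1810 RPKM in miR_CKO. Libraries differed in RNA of other tissues. The 10 muscle markers, of which 7 were tested, summed to 32.2, 176 and 136 RPKM in Controls 1 to 3 and to 30.9, 34.5 and 42.8 RPKM in miR_CKO 1 to 3. The 10 mesenchyme markers summed to 234, 391 and 429 RPKM and to 204, 273 and 304 RPKM. A set of 8 genes (Lhx1, Lhx5, Pax2, Pax8, Lbx1, Pax7, Gad1, Gad2) was taken as dorsal spinal cord markers after values were seen. They summed to 1.37, 8.52 and 6.81 RPKM in controls and to 1.94, 1.38 and 36.9 RPKM in miR_CKO. Whether these genes mark that tissue alone in these libraries was not tested. By Xist, miR_CKO 1 stood apart at 96.0 RPKM, with no more than 0.0890 RPKM elsewhere. In such bulk tissue, fewer cells of a type and less RNA per cell cannot be told apart.

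None of the guidance genes passed the test between genotypes. Of the 41, 36 were tested, having at least 1 RPKM in at least 3 libraries. With limma and Benjamini-Hochberg adjustment over all 13118 tested genes, 0 of the 36 had an adjusted p under 0.05, where 0.0610% of all tested genes did (0.0534% higher and 0.00762% lower). At an unadjusted p under 0.05 there were 2 of 36, the ligands Ntn4 (higher) and Ntng2 (lower). That is 5.56% of the guidance genes, near the 5.16% of all tested genes. The groups did not overlap for 3 of 36, or 8.33%, beside 10.9% of all tested genes, and these were Ntn4 and Epha10 (higher, beside 4.63% of all tested genes) and Ntng2 (lower, beside 6.24%).

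Ligands and receptors had similar medians. Changes are miR_CKO minus Control on the log2(RPKM + 1) scale, which understates those of low genes. The median log2 change was -0.053 over 16 tested ligands, of which 6 were above 0, and -0.065 over 20 tested receptors, of which 6 were above 0. Over all tested genes it was -0.024, with 40.4% above 0. The summed level of all 17 ligands was 150 ± 11.5 RPKM in controls and 145 ± 5.84 RPKM in miR_CKO (SD, n = 3 each). For the 24 receptors the sums were 200 ± 30.4 and 196 ± 47.4 RPKM (SD, n = 3 each). The ratio of the ligand sum to the receptor sum was 0.824, 0.695 and 0.747 in Controls 1 to 3 and 0.841, 0.838 and 0.602 in miR_CKO 1 to 3. The lowest ratio was in miR_CKO 3, where the receptors Robo3 and Dcc were highest, and the groups overlapped.

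**Figure D1:**
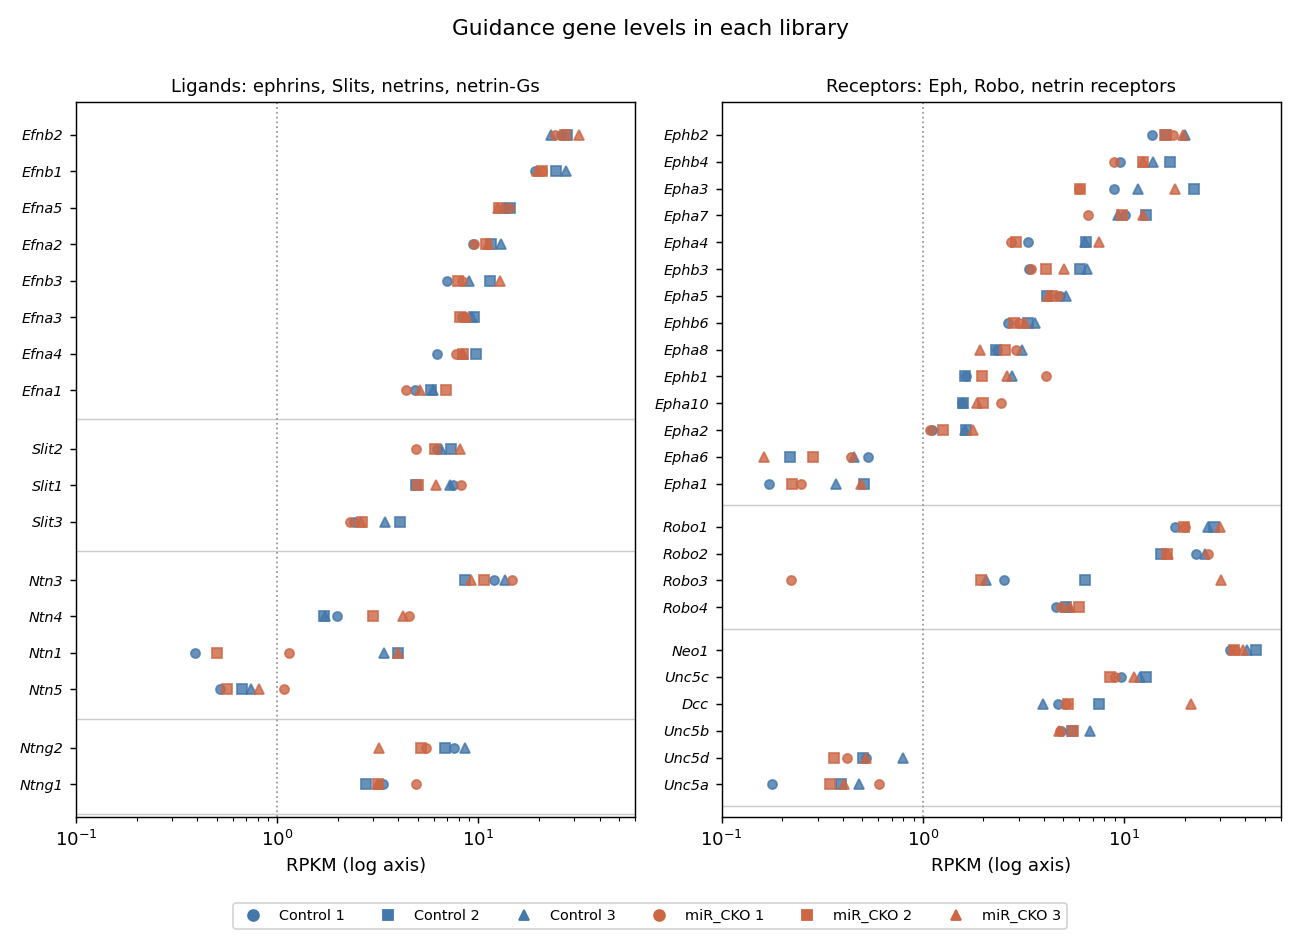
RPKM of each of the 41 guidance genes in each library, on a log axis, with ligands on the left and receptors on the right; colours mark the group and shapes the replicate number. Neo1 lies highest, between 33.7 and 45.3 RPKM, and Robo3 spreads widest, from 0.221 to 30.2 RPKM.

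Among ligands, netrin-4 had the largest log2 change. Ntn4 encodes a secreted netrin of basement membranes that binds laminin. It measured 1.99, 1.71 and 1.73 RPKM across Controls 1 to 3 against 4.51, 3.00 and 4.21 RPKM across miR_CKO 1 to 3, which rests on 104, 100 and 84 reads and on 244, 160 and 211 reads. All 3 miR_CKO libraries lay above all 3 controls. The log2 change was 0.79 (SE 0.14, 95% interval 0.45 to 1.13, limma adjusted p = 0.200), so the gene did not pass over all genes. With each library left out in turn the change stayed between 0.70 and 0.93, with an adjusted p of 0.323 to 0.633. Ntn4 lies at chr10:93640681-93747207 of mm10, plus strand, and its single site is the miR-96 match printed with the sites, 99 bases into a 3 prime UTR of 1354 bases.

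Netrin-G2 went the other way. Ntng2 encodes a lipid-anchored relative of netrins that binds the synaptic adhesion protein Lrrc4, not Dcc. It was at 7.54, 6.83 and 8.60 RPKM in controls and at 5.51, 5.16 and 3.19 RPKM in miR_CKO, with every miR_CKO library below every control. The log2 change was -0.65 (SE 0.18, 95% interval -1.07 to -0.22, limma adjusted p = 0.618). Without miR_CKO 3, the lowest library, it was -0.45. The partner gene Lrrc4, named for that reason and not by its change, values of 2.94, 3.55 and 3.45 RPKM in controls and 3.35, 4.03 and 6.91 RPKM in miR_CKO. Its groups overlapped, and miR_CKO 3 was highest. The sister gene Ntng1, whose product binds Lrrc4c, was at 3.36, 2.77 and 3.16 RPKM in controls and at 4.90, 3.18 and 3.18 RPKM in miR_CKO, with overlapping groups. Its change of 0.20 was 0.030 without miR_CKO 1, the library with the high value.

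**Figure D2:**
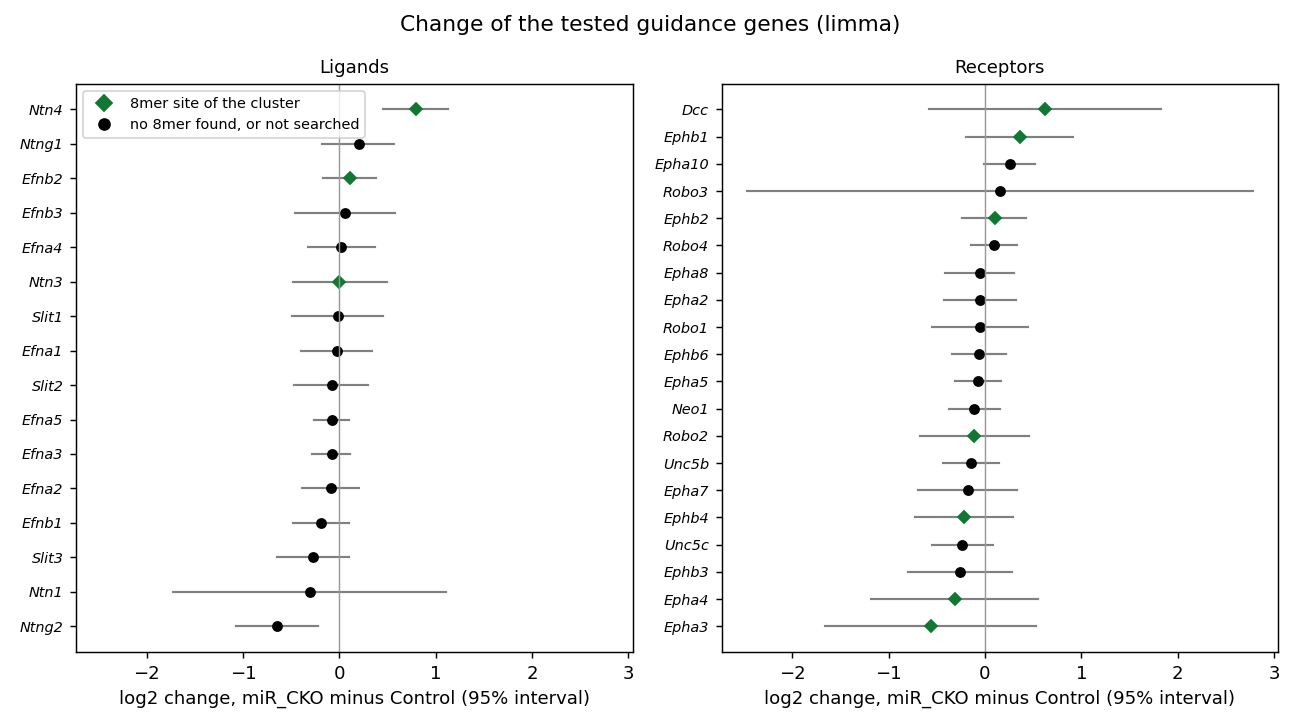
Log2 change, miR_CKO minus Control, with the 95% interval from limma, for 16 tested ligands (left) and 20 tested receptors (right); diamonds mark genes with an 8-base match to a seed of the cluster. Only the intervals of Ntn4 and Ntng2 exclude 0, without adjustment, and the widest interval is that of Robo3, from -2.47 to 2.78.

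The other netrins varied between libraries more than between genotypes. Ntn3 was the most abundant netrin, at 12.01, 8.61 and 13.5 RPKM in controls and 14.6, 10.6 and 9.14 RPKM in miR_CKO. It holds a miR-182 match, and its groups overlapped (95% interval of the log2 change -0.48 to 0.49). Ntn1, the netrin of the floor plate, was at 0.388, 3.96 and 3.39 RPKM in controls and at 1.14, 0.499 and 3.96 RPKM in miR_CKO. It was thus high in Controls 2 and 3 and in miR_CKO 3, the libraries with the 3 highest sums of muscle markers, of mesenchyme markers and of the dorsal spinal cord genes. The floor plate genes Shh and Foxa2 were at no more than 0.299 and 0.0216 RPKM in any library. The part of other tissues in the Ntn1 values was not tested. Ntn5 stayed below the filter, at 0.518 to 1.08 RPKM.

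Ephrins were the most abundant ligand family and the least variable. Efnb2, a B-type ephrin also known as a marker of arteries, was at 25.6, 27.6 and 23.0 RPKM in controls and 24.0, 27.0 and 31.6 RPKM in miR_CKO. Efnb1, an X-linked B-type ephrin, was at 19.1, 24.2 and 27.1 RPKM in controls and 20.6, 20.6 and 19.5 RPKM in miR_CKO, so that miR_CKO 1, the library with Xist, did not stand apart. The groups overlapped for both. The next in order, Efna5, spanned only 12.49 to 14.3 RPKM over the 6 libraries and did not overlap with Efnb1. Efna2, Efnb3, Efna3 and Efna4 followed with overlapping ranges between 6.22 and 13.0 RPKM. Efna1 was the lowest, at 4.81, 5.78 and 5.97 RPKM in controls and 4.37, 6.86 and 5.12 RPKM in miR_CKO, and holds a miR-183 and a miR-96 site of 7 bases. Of the 8 ephrins, 3 had a log2 change above 0 and 5 below, from -0.19 (Efnb1, 95% interval -0.48 to 0.10) to 0.11 (Efnb2, -0.17 to 0.38). Efnb1 was at -0.33 without Control 1 and -0.085 without Control 3, and Efnb2 at 0.0062 without miR_CKO 3 and 0.20 without miR_CKO 1. The highest and lowest library differed by 1.40-fold in the median ephrin, close to the 1.32-fold of all tested genes and below the 1.66-fold of all tested guidance genes.

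Slits were detected at lower levels than most ephrins. Slit1 was at 7.50, 4.90 and 7.23 RPKM in controls and 8.17, 5.03 and 6.14 RPKM in miR_CKO. Slit2 was at 6.20, 7.33 and 6.48 RPKM in controls and 4.87, 6.11 and 8.08 RPKM in miR_CKO, and the ranges of both genes overlap. Slit3 was lower, at 2.30 to 4.09 RPKM over all libraries. All 3 had a log2 change below 0, of -0.02, -0.08 and -0.27, with 95% intervals that include 0 (the widest, for Slit1, -0.49 to 0.45).

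Among Slit receptors, Robo1 and Robo2 were abundant and had different orders of libraries. Robo1 was at 18.01, 28.0 and 26.3 RPKM in controls and 20.1, 19.9 and 29.9 RPKM in miR_CKO. Robo2 was at 22.9, 15.3 and 25.4 RPKM in controls and 26.3, 16.3 and 16.6 RPKM in miR_CKO. Robo2 was above 22 RPKM in Controls 1 and 3 and miR_CKO 1 alone. Slit1, Ntn3 and Epha5 were likewise highest in those 3 libraries, a pattern seen after the values were known and given without a test. Robo1 and Robo2 had log2 changes of -0.05 (95% interval -0.55 to 0.45) and -0.11 (-0.67 to 0.46). Robo4, a receptor of endothelial cells, was steady at 4.59 to 5.98 RPKM. It was highest in miR_CKO 2, as was the sum of the 8 endothelial markers, all tested, although Egfl7 among them was highest in Control 3. The sums were 97.9, 119 and 112 RPKM in controls and 96.6, 139 and 104 RPKM in miR_CKO.

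Robo3 and the netrin receptor Dcc were far higher in 1 library than in the others. Robo3 encodes the divergent Robo receptor of commissural axons of the spinal cord and hindbrain, and it was singled out after its values were seen. It was at 2.54, 6.41 and 2.07 RPKM in controls and at 0.221, 1.94 and 30.2 RPKM in miR_CKO, from 23 reads in miR_CKO 1 to 2907 in miR_CKO 3. Dcc, which also serves commissural axons, was at 4.70, 7.48 and 3.97 RPKM in controls and at 5.16, 5.28 and 21.6 RPKM in miR_CKO. In each gene miR_CKO 3 was far above the other libraries and Control 2 came next. The log2 change of Dcc was 0.62 (SE 0.51, limma adjusted p = 1.0) and fell to 0.0019 without miR_CKO 3. That of Robo3 was 0.16 (SE 1.11, limma adjusted p = 1.0) and turned to -1.19 without that library. The dorsal spinal cord genes shared this high library. Each of the 8 was highest in miR_CKO 3, with Lhx1 at 9.07 RPKM, Pax8 at 6.12 RPKM and Gad2 at 4.24 RPKM there. In Controls 1 and 3 the order differed. The dorsal sum was 1.37 RPKM in Control 1 and 6.81 RPKM in Control 3, while Robo3 and Dcc were both lower in Control 3. Outside miR_CKO 3, Lbx1 was at 0 in Control 1 and miR_CKO 1. Of 8 other spinal cord markers listed earlier, mostly ventral, only Pax6 was tested, at 3.59 RPKM in miR_CKO 3 and at most 1.497 RPKM elsewhere. Mnx1, the motor neuron gene, was at 0 in all libraries. Their summed level was 1.84 to 2.71 RPKM in controls and 1.44 to 4.68 RPKM in miR_CKO. The part of spinal cord RNA in the Robo3 and Dcc values was not tested.

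**Figure D3:**
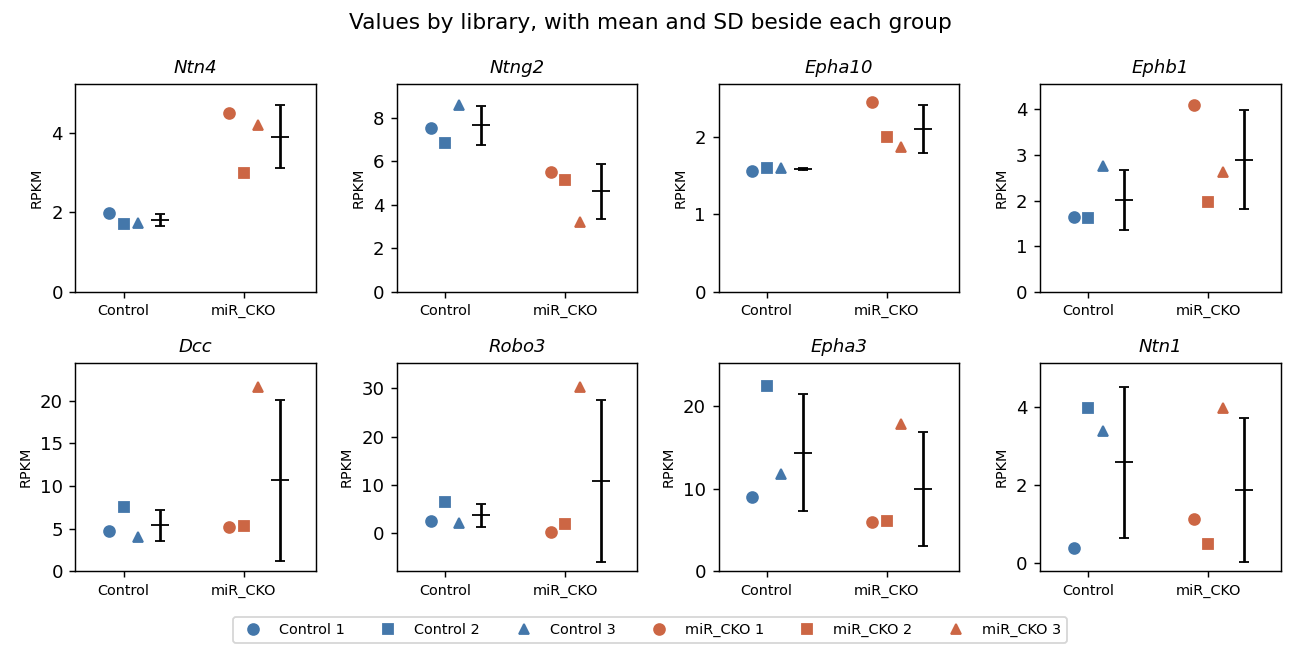
RPKM by library for 8 guidance genes, with the mean and SD of each group of 3 as a bar beside the points. Ntn4, Ntng2 and Epha10 show groups that do not overlap, while Dcc and Robo3 are high in miR_CKO 3 alone, at 21.6 and 30.2 RPKM.

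The other netrin receptors were steadier. Neo1, or neogenin, which binds netrins and repulsive guidance molecules, had the highest level of all guidance genes, at 33.7, 45.3 and 40.7 RPKM in controls and 35.8, 35.3 and 39.2 RPKM in miR_CKO. No other guidance gene overlapped with it, the next highest value being 31.6 RPKM, for Efnb2 in miR_CKO 3. Its log2 change was -0.11 (95% interval -0.37 to 0.16), with -0.22 without Control 1 and -0.011 without Control 2. Unc5c was at 9.63, 12.8 and 11.97 RPKM in controls and 9.06, 8.50 and 11.2 RPKM in miR_CKO, with overlapping groups, a log2 change of -0.24 (95% interval -0.55 to 0.08) and 3 sites of 7 bases. Unc5b was at 4.77 to 6.80 RPKM, and Unc5a and Unc5d were below the filter at 0.177 to 0.604 and 0.363 to 0.799 RPKM. Unc5d held the most sites of any guidance gene, 5 of 7 bases each, but was at 0.522, 0.503 and 0.799 RPKM in controls and 0.418, 0.363 and 0.521 RPKM in miR_CKO. Fitted without the filter, its log2 change was -0.161 (limma adjusted p = 0.984).

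Eph receptors ranged from 0.163 RPKM (Epha6) to 22.4 RPKM (Epha3). Ephb2, a receptor for B-type ephrins, was the most abundant, at 13.8, 16.2 and 20.0 RPKM in controls and 17.6, 16.0 and 19.7 RPKM in miR_CKO. Ephb4, which pairs with Efnb2 at the border of veins and arteries, was at 9.50, 17.0 and 13.98 RPKM in controls and 8.95, 12.45 and 12.42 RPKM in miR_CKO. These 2 ranges overlapped with each other and with Epha3. Epha3 was at 8.97, 22.4 and 11.8 RPKM in controls and 5.95, 6.07 and 17.9 RPKM in miR_CKO. Epha4, a receptor for both ephrin classes, was at 3.33, 6.48 and 6.39 RPKM in controls and 2.74, 2.90 and 7.54 RPKM in miR_CKO.

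Both A-type receptors were high in Controls 2 and 3 and in miR_CKO 3, like Ntn1, Robo1 and Ephb3, which are the libraries with the most muscle, mesenchyme and dorsal spinal cord marker RNA. Epha4 was highest in miR_CKO 3, as the dorsal spinal cord sum was, and Epha3 in Control 2, as the muscle sum was. Their log2 changes were -0.56 (95% interval -1.66 to 0.53) for Epha3 and -0.31 (-1.18 to 0.55) for Epha4. Without miR_CKO 3 they were -1.04 and -0.70, and each then had a limma p under 0.05 before adjustment (0.0248 and 0.0361, with adjusted p = 1.0 for both). Without Controls 2 and 3, which leaves 1 control assumed to vary like the other libraries, Epha4 turned to 0.21 and Epha3 was at -0.032. Leaving out Control 2 alone put Epha3 at -0.21. The part of muscle, mesenchyme and spinal cord RNA in these values was not tested.

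Ephb1 and Epha10 were higher in miR_CKO by their means. Ephb1 was at 1.64, 1.62 and 2.76 RPKM in controls and at 4.09, 1.97 and 2.62 RPKM in miR_CKO, with overlapping groups. Its log2 change was 0.36 (SE 0.23, limma adjusted p = 1.0) and 0.15 without miR_CKO 1. Epha10, whose kinase domain is thought to be inactive, was at 1.56, 1.59 and 1.59 RPKM in controls and 2.44, 1.99 and 1.86 RPKM in miR_CKO, without overlap. Its change was 0.26 (SE 0.11, limma adjusted p = 0.977), and no site was found in its 3 prime UTR of 689 bases. The remaining Eph receptors, Epha2, Epha5, Epha7, Epha8, Ephb3 and Ephb6, had log2 changes between -0.26 and -0.05, with overlapping groups in each. Epha1 and Epha6 were below the filter, at 0.171 to 0.510 and 0.163 to 0.536 RPKM. Of the 12 tested Eph receptors 3 had a change above 0 and 9 below, with a median of -0.065.

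**Figure D4:**
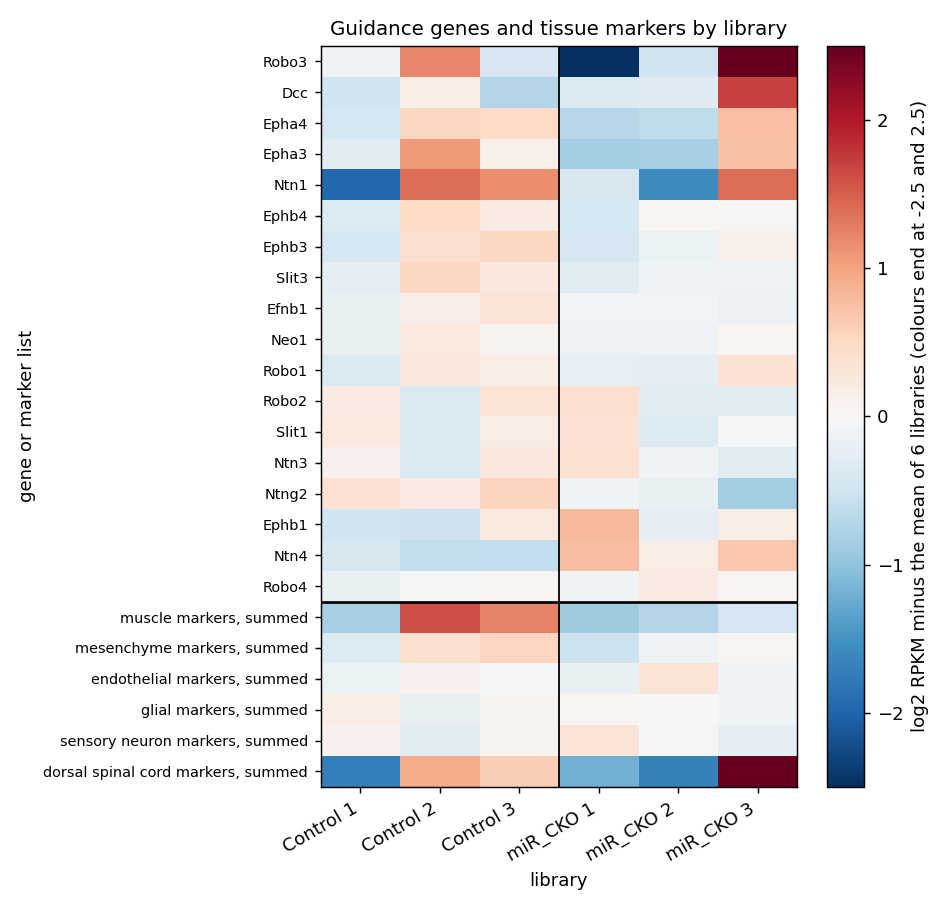
Log2 RPKM minus the mean of 6 libraries for 18 guidance genes (above the line) and for summed marker lists (below it), with controls left of the vertical line; colours end at -2.5 and 2.5. Robo3, Dcc and the dorsal spinal cord genes are highest in miR_CKO 3, and Ntn1, Epha3 and Epha4 are high there and in Controls 2 and 3.

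Large differences between libraries were more frequent among guidance genes than over all tested genes, a description without a test. The highest library was at least 2 times the lowest for 8 of 36 tested members, or 22.2%, beside 10.1% of all tested genes. These were Robo3 (136-fold), Ntn1 (10.2-fold), Dcc, Epha3, Epha4, Ntng2, Ntn4 and Ephb1. Control 1 was the lowest library for 12 of the 36, or 33.3%, beside 18.1% of all tested genes. It was the highest for 0 of the 36, beside 10.5% of all tested genes. Leaving out Control 1 raised the members at an unadjusted limma p under 0.05 from 2 to 8 (1 higher, 7 lower), beside 7.85% of all genes in that fit, and those whose groups do not overlap from 3 to 14, beside 25.8% of all genes. Without miR_CKO 3 the counts were 6 and 8, beside 4.06% and 18.8%. None of the members passed adjustment in either fit. The single-omission counts rest on 2 libraries in an arm, where groups separate more easily.

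Guidance genes with a seed site had a median change slightly below 0. Of the 20 tested, 7 were above 0 and 13 below, or 35.0% above, beside 51.9% of all tested genes with a site. The median log2 change was -0.080 in the 20 tested guidance genes with a site and -0.056 in the 14 searched without one. Over all tested genes the medians were 0.004 with a site and -0.036 without. For the 10 guidance genes with an 8-base match it was 0.050, beside 0.043 for all tested genes with such a match. Split by microRNA after the values were seen, 6 of 7 guidance genes with a miR-96 or miR-182 match of 8 bases had a change above 0, with Epha3 the exception. All 3 with a miR-183 match of 8 bases, Epha4, Robo2 and Ephb4, had a change below 0. Over all tested genes 63.0% of those with such a miR-96 or miR-182 match were above 0, and 126 of 210 of those with such a miR-183 match. Some of these signs rest on single libraries, while Ntn4, Ephb1, Epha3, Epha4 and Ephb4 kept theirs with each library left out. Without Controls 2 and 3 together, Epha4 and Ephb4 each turned to 0.21. Of the 7, Ntn3 turned to -0.17 without Control 2 or without miR_CKO 1, and Ephb2 to -0.025 without Control 1. Without miR_CKO 3, Efnb2 was at 0.0062 and Dcc at 0.0019. Of the 3, Robo2 turned to 0.035 without Control 3 and to 0.0091 without miR_CKO 2.

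Other genes of the 3 systems (further ligands, co-receptors, binding partners and intracellular signalling genes) were taken from a list of 54, of which 51 were tested and 0 passed adjustment over all genes. At an unadjusted limma p under 0.05 there were 5 genes, all higher in miR_CKO, or 9.80% of the list, beside 2.85% of all tested genes that were higher at that level. None was lower, beside 2.31% of all tested genes. These 5 were Fyn, Vav2, Rasa1, Pak1 and Rac1, and each carries a site. They were 17.2% of the 29 list members with a site, beside 6.69% of all tested genes with one. The 29 as a whole did not lean higher, with 12 above 0, 17 below and a median log2 change of -0.027. That is 41.4% above 0, beside 51.9% and a median of 0.004 for all tested genes with a site.

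Fyn, a Src-family kinase downstream of ephrins and Dcc, was at 47.5, 47.8 and 45.3 RPKM in controls and 60.5, 59.9 and 53.9 RPKM in miR_CKO. Its log2 change was 0.30 (SE 0.07, limma adjusted p = 0.365), and it has a 7-base miR-96 match at chr10:39564258-39564264. The exchange factor Vav2, which links Eph receptors to Rac, was at 15.8, 16.2 and 16.1 RPKM in controls and 18.7, 17.7 and 20.0 RPKM in miR_CKO. Rasa1, a Ras GTPase-activating protein that binds Eph receptors, was at 19.2, 20.1 and 18.7 RPKM in controls and 21.2, 22.3 and 23.2 RPKM in miR_CKO, and has 2 miR-182 matches of 8 bases. Pak1, a kinase activated by Rac1, was at 36.9, 30.8 and 34.2 RPKM and at 43.4, 38.5 and 39.0 RPKM. Rac1 itself was at 120, 128 and 124 RPKM and at 132, 143 and 141 RPKM, with a miR-182 match of 8 bases. The log2 changes of these 5 genes were 0.30, 0.21, 0.19, 0.24 and 0.15. In all 5 every miR_CKO library lay above every control. They were picked by p in this same comparison, so that separation adds no support. Over the whole list the groups did not overlap for 10 of 51 genes, or 19.6%, beside 10.9% of all tested genes. Of these 7 were higher, beside 4.63% of all tested genes, and include Chn1 and Cap1. The 3 lower, beside 6.24% of all tested genes, were Src, Grip1 and Flrt3. Chn1, Cap1, Src, Grip1 and Flrt3 are named for completeness of the count, after their values were seen.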

How the data were processed

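The authors deposited 1 table of 24264 genes with a column for each of the 6 libraries. The submitters' processing notes name Bowtie and mm10. The sources used here name neither the counting tool nor its annotation. The deposited values were read as RPKM (FPKM cannot be told apart) because the smallest step between a gene's values shrank as its transcript lengthened (rank correlation -0.918 over 2586 genes, which are not independent replicates). Steps gave whole reads, to within 0.01 read, for 88.4% of tested genes and 38 of the 41 guidance genes; depth and reads come from these steps.

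The values were transformed to log2(RPKM + 1), so fold changes of low genes are understated. Genes with 1 RPKM or more in 3 libraries entered limma 3.58.1 under R 4.3.3 (trend and robust settings, two-sided, Benjamini-Hochberg, threshold 0.05), a script tested on simulated data. Seed matches come from the annotated 3 prime UTR of 1 GENCODE M21 transcript per gene, chosen by basic tag, APPRIS rank and length, with Python 3.11.15. Sequences of microRNAs are from RefSeq. Values in all libraries are given for members with an unadjusted p under 0.05 or separate groups, the 2 highest of each family, the 3 largest changes each way, and those with an 8-base match or 2 or more sites. Members and lists were chosen with earlier results of these data known. Genes of paralog families may share reads. Libraries were compared as 3 against 3; alternatives are other pseudocounts, filters, scalings, priors, a replicate block and omitted libraries. Figures used matplotlib 3.10.9.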

Additional observations from a re-analysis of the deposited data

How the results depend on the processing

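None of the guidance genes passed adjustment under any of the 16 alternatives, where the lowest adjusted p of a named gene was 0.165. Of 345 values of named genes under the alternatives, 313 kept direction and side of the threshold and 32 turned sign, and the cause was not tested. Over all genes the count passing was 8, against 0 with upper quartile scaling, 2 with median centring, 0 with scaling without haemoglobin and mitochondrial genes, 0 with no trend and 0 without Controls 2 and 3 (limma; 698, 688, 681, 709 and 395 at an unadjusted p under 0.05). With each library left out it was 0 to 2. Guidance genes at an unadjusted p under 0.05 numbered 2 to 8 with each library left out (8 without Control 1, 6 without miR_CKO 3), and those with separate groups 4 to 14. With a minimum of 5 RPKM both counts were 1, beside 5.34% and 11.1% of all genes, as Ntn4 and Epha10 were not tested. Guidance genes at an unadjusted limma p under 0.05 numbered 3 with no filter, median centring or no trend, as Epha10 joined. That stood beside 4.96%, 5.24% and 5.4% of all genes. Without Controls 2 and 3 separate groups numbered 16, beside 43.9% of all genes. The medians were then 0.079 (ligands) and 0.178 (receptors), and the changes of Ephb4 0.21, Robo1 0.33, Slit2 0.0065, Efnb1 0.079, Neo1 0.12, Ntn3 -0.088, Epha4 0.21 and Efna1 0.13. With each library left out the ligand median was -0.118 to 0.014 and the receptor median -0.158 to -0.008. Over the same omissions the changes ranged, for Ephb2 -0.025 to 0.23, Robo1 -0.24 to 0.066, Robo2 -0.32 to 0.035, Slit1 -0.19 to 0.12, Slit2 -0.25 to 0.069, Ntn3 -0.17 to 0.14, Efna1 -0.18 to 0.094, Ntn1 -0.89 to 0.067 and Robo3 -1.19 to 1.15. Robo3 was at -0.30 with a pseudocount of 0.1 and -0.00033 with 0.5. With median centring Slit1 was at 0.0084 and Efna1 at 0.00048. With the replicate number as a block, 0 genes passed over all genes (847 at an unadjusted p under 0.05) and 2 guidance genes were at an unadjusted p under 0.05. Deviations of same-numbered libraries correlated at 0.359, 0.330 and -0.221, and those of unlike-numbered libraries at -0.700 to 0.524. These correlations cannot tell whether the numbers pair the libraries by litter or batch. Low genes rest on few reads, and 3 libraries a group limit what could pass.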
